A study of Mus musculus with 17 samples.

Results

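The genes described here are 6 CXC chemokine ligands (Cxcl5, Ppbp, Pf4, Cxcl3, Cxcl1 and Cxcl2) and 2 CXC receptors (Cxcr2 and Cxcr4). They were chosen by gene name on the array, 8 genes beside the 15254 tested in the whole series, and each had 1 probe. The list was selected on earlier results of these same arrays, in which Pf4, Cxcr2 and Cxcr4 had differed from WT in 1 group or another, so differences from WT are given below as a description with no test. Where calls of these genes against WT are counted, nothing about the genes is read from them. Of the 8 genes, 5 passed the filter on dim probes and 3 (Cxcl1, Cxcl2 and Cxcl5) were not well above background on any array. Cxcl3 passed only through the 1 group in which it was bright.

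RNA was measured on 17 one-colour arrays of the murine Bcr-Abl+ cell line DA1-3b (strain C3H eOuJ), transfected with a plasmid for a form of murine p65/RelA. The groups carried the D361E point mutant that the design describes as non-cleavable (4 arrays), residues 1-361 (3 arrays), residues 362-549 (3 arrays), both fragments together (1-361+362-549, 3 arrays) or wild-type p65 (WT, 4 arrays). All groups share the line and the Bcr-Abl background, and cells with the void plasmid, which the protocol also names, were not analysed here, so no group shows the line without added p65. The labels do not say whether arrays of a group came from separate cultures, so the p-values cover only array-to-array spread, part of which may be technical, and their precision is limited by how few arrays a group has. The Rela probe read 4.62 to 4.94 on the log2 scale over the 17 arrays, and whether it detects the plasmid transcripts was not tested.

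CXC chemokines are small secreted proteins that bind G protein-coupled receptors on leukocytes. Cxcl1, Cxcl2, Cxcl3 and Cxcl5 attract neutrophils through Cxcr2, and several of them are textbook targets of NF-kB, the transcription factor of which RelA is a subunit. Ppbp (pro-platelet basic protein, the precursor of another Cxcr2 ligand) and Pf4 (platelet factor 4) are made by megakaryocytes and stored in platelet granules, and Cxcr4 is the receptor of Cxcl12, which holds blood progenitors in the bone marrow.

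The ligands lie in a row on mouse chromosome 5, so the first question was what their start regions share. By the probe coordinates of the array files (build mm9), the order is Cxcl5 (chr5:91190490-91190549), Ppbp (chr5:91198970-91199029), Pf4 (chr5:91202275-91202334), Cxcl3 (chr5:91216694-91216753), Cxcl1 (chr5:91321845-91321904) and Cxcl2 (chr5:91334534-91334593). Ppbp and Pf4 are the closest neighbours, with 3.305 kb between the starts of their probes, and the widest gap, 105.151 kb, separates Cxcl3 from Cxcl1. The receptors lie elsewhere, on chromosome 1 (Cxcr2 at chr1:74206886-74206945, Cxcr4 at chr1:130485079-130485138). Promoters of 7 of the 8 genes were matched by symbol in RefSeq (GRCm38.p6), and the 250 bases before each annotated start were searched on both strands for the kB consensus (the 10-base NF-kB motif, by name) and for the letters ATAAAA and GATAA. The last 150 bases before the start are printed for 5 ligands, because 3 of them hold the kB consensus and the other 2 were the ligands read on every array. All 5 lie on the plus strand: Cxcl1 at chr5:90891095-90891244, Cxcl2 at chr5:90903749-90903898, Cxcl3 at chr5:90785951-90786100, Ppbp at chr5:90768368-90768517 and Pf4 at chr5:90772285-90772434. Capitals mark matches to the kB consensus.
Cxcl1: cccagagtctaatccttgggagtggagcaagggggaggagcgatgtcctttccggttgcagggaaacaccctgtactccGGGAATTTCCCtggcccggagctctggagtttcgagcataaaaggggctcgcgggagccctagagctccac
Cxcl2: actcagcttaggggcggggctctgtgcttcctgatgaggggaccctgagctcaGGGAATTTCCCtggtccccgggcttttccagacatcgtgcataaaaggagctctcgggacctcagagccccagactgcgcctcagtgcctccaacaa
Cxcl3: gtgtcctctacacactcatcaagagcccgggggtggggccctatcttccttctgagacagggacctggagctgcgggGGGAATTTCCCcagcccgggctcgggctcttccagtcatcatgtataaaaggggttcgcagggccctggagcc
Ppbp: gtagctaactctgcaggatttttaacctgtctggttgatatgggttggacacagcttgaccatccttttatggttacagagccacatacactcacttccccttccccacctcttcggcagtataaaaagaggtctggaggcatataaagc
Pf4: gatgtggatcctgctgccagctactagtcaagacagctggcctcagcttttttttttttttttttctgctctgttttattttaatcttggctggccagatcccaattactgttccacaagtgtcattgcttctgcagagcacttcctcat
Cxcl1, Cxcl2 and Cxcl3 each held the same run of 11 bases, GGGAATTTCCC, in which a match on the plus strand overlaps one on the minus strand. Counted from the annotated start, with the base before it at -1, it began at -71 in Cxcl1, -97 in Cxcl2 and -73 in Cxcl3, and it is the longest run that the 3 windows share. The kB consensus was found in 1281 of 32851 promoters of the same length (3.90%), and the run of 11 bases in 14 of them (0.0426%). The windows of Ppbp, Pf4, Cxcr2 and Cxcr4 held no match to the consensus. ATAAAA, found in 17.0% of all promoters, occurred in every window of the 7 but that of Cxcr2, and GATAA, found in 22.6%, occurred only in that of Cxcr4. A match describes the letters and is not evidence of a bound site.

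Of the platelet factors, Pf4 separated the groups most clearly. Levels are given as log2 of the processed signal relative to the 75th percentile of the array, so 0 is the brightness that 75% of probes stay under. Pf4 read 4.88, 5.09, 5.31 and 4.58 on the D361E arrays, 6.02, 5.79 and 5.73 with 1-361, and 3.87, 4.13 and 3.98 with 362-549. It read 6.83, 6.56 and 7.24 with 1-361+362-549, against 4.68, 4.93, 4.83 and 4.29 in WT. The order was therefore 1-361+362-549, 1-361, D361E, WT and 362-549 from high to low, and only D361E and WT overlapped.

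Pf4 rose with 1-361+362-549 against D361E by 1.91 ± 0.20 on the log2 scale, a 3.77-fold difference (SE; limma adjusted p = 1.35e-05). Against 1-361 it was higher by 1.03 ± 0.22 (adjusted p = 0.00768), and that call was lost with slide as a block (0.98 ± 0.24, adjusted p = 0.0614) and under normexp background correction (0.133). Against 362-549 it was higher by 2.88 ± 0.22, or 7.38-fold (adjusted p = 5.58e-07), but no slide held arrays of both groups. These comparisons share arrays with one another and with those that put Pf4 on the list, so they are no independent evidence of it.

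The 2 single fragments also differed. Pf4 was higher with 1-361 than with 362-549 by 1.85 ± 0.22, or 3.61-fold (limma adjusted p = 0.000286; 0.0224 with slide as a block), and by 1.60 within the 1 slide that held both. It was lower with 362-549 than with D361E at a difference of -0.97 ± 0.20 (adjusted p = 0.0258). That call was lost with slide as a block (0.417), under normexp background correction (0.145) and with no filter on dim probes (0.0698). It was also lost without any of 5 single arrays, namely 362-549 replicates 1, 2 and 3 and D361E replicates 2 and 3. With 1-361 against D361E the difference of 0.88 ± 0.20 did not pass (adjusted p = 0.0508). Within slides, Pf4 with 1-361+362-549 exceeded D361E by 1.52 to 2.36 on 3 slides and 1-361 by 0.77 and 1.22 on 2 slides.

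Differences from WT in Pf4, which chose the gene, were 0.28 ± 0.19 for D361E, 1.16 ± 0.20 for 1-361, -0.69 ± 0.20 for 362-549 and 2.20 ± 0.20 for 1-361+362-549 (log2, SE).

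Ppbp followed a similar order with a wider spread. It read 2.69, 2.77, 3.47 and 1.23 on the D361E arrays, 3.50, 3.71 and 3.27 with 1-361, and -0.26, 0.64 and 0.66 with 362-549. It read 2.76, 2.27 and 4.07 with 1-361+362-549, against 1.03, 1.96, 2.36 and 0.98 in WT. Only the 362-549 arrays lay apart from all other groups. The D361E, 1-361+362-549 and WT arrays overlapped pairwise, and 1-361 lay above WT on every array.

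Ppbp was higher with 1-361+362-549 than with 362-549 by 2.68 ± 0.55, or 6.43-fold (limma adjusted p = 0.00537; 0.0863 with slide as a block). With 1-361 against 362-549 it was higher by 3.14 ± 0.55, or 8.82-fold (adjusted p = 0.0127; 0.0981 with slide as a block), and by 2.62 on the 1 slide with both. The call was also lost under normexp background correction (0.0546) and without 362-549 replicate 1, 1-361 replicate 1 or 1-361 replicate 2. With 362-549 against D361E the difference was -2.19 ± 0.51 and did not pass (adjusted p = 0.0506; 0.299 with slide as a block). It did pass without scaling (0.0162), where the median gene itself shifted by -0.15. Where Pf4 was higher with 1-361+362-549 than with 1-361, Ppbp differed by -0.46 ± 0.55 (95% interval -1.62 to 0.71, adjusted p = 0.591), which leaves a sizeable difference either way. Against WT, as a description, Ppbp differed by 0.96 ± 0.47 for D361E, 1.91 ± 0.51 for 1-361, -1.23 ± 0.51 for 362-549 and 1.45 ± 0.51 for 1-361+362-549.

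Cxcl3, a neutrophil chemoattractant, was read in 1 group only. It was well above background on 3 of 3 arrays with 1-361+362-549, at -0.49, -1.34 and 0.23, and on none of the 14 others. The measured values of those others ran from -6.45 to -4.68 with D361E, -6.29 to -4.47 with 1-361, -6.69 to -6.42 with 362-549 and -6.72 to -6.55 in WT, and none was flagged as well above background. Of these arrays 2 (D361E replicate 3 at -4.68 and 1-361 replicate 1 at -4.47) lay above the lowest signal that was so flagged for any probe on the same array. A group at background has only a bound, taken here as the lowest signal well above background on each of its arrays, or the probe's own signal where that was higher. With 1-361+362-549, Cxcl3 was at least 22.9-fold higher than with D361E, at least 17.7-fold higher than with 1-361 and at least 17.3-fold higher than with 362-549. Cxcl3 was among the genes tested only because it was bright in that group, so these bounds are given as a description with no p. Against WT the bound was at least 23.1-fold, given as a description. Under normexp background correction the log2 differences were 2.77 against D361E, 2.76 against 1-361, 2.85 against 362-549 and 2.36 against WT. These lie below the bounds, which therefore hold only for the main background treatment.

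Cxcl1, Cxcl2 and Cxcl5, which act on the same receptor as Cxcl3, were not read in these cells. Cxcl1 ranged from -7.58 to -6.60 with D361E and from -7.54 to -6.44 with 1-361+362-549, against -7.19 to -6.81 in WT. Cxcl2 ranged from -7.59 to -6.98 with 1-361+362-549, against -7.27 to -6.65 in WT. Cxcl5 ranged from -7.95 to -7.01 with 1-361+362-549, against -7.64 to -7.18 in WT. With 1-361 and 362-549 the 3 genes likewise read between -7.22 and -6.42, so no array in any group showed them above background, and no fold is given. Cxcl1 and Cxcl2 hold the run printed above as Cxcl3 does, and Cxcl3 was the one read. The probe of Cxcl3 matched that of Cxcl1 at no more than 22 of 60 bases and that of Cxcl2 at no more than 23 in any ungapped alignment tried.

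**Figure D1:**
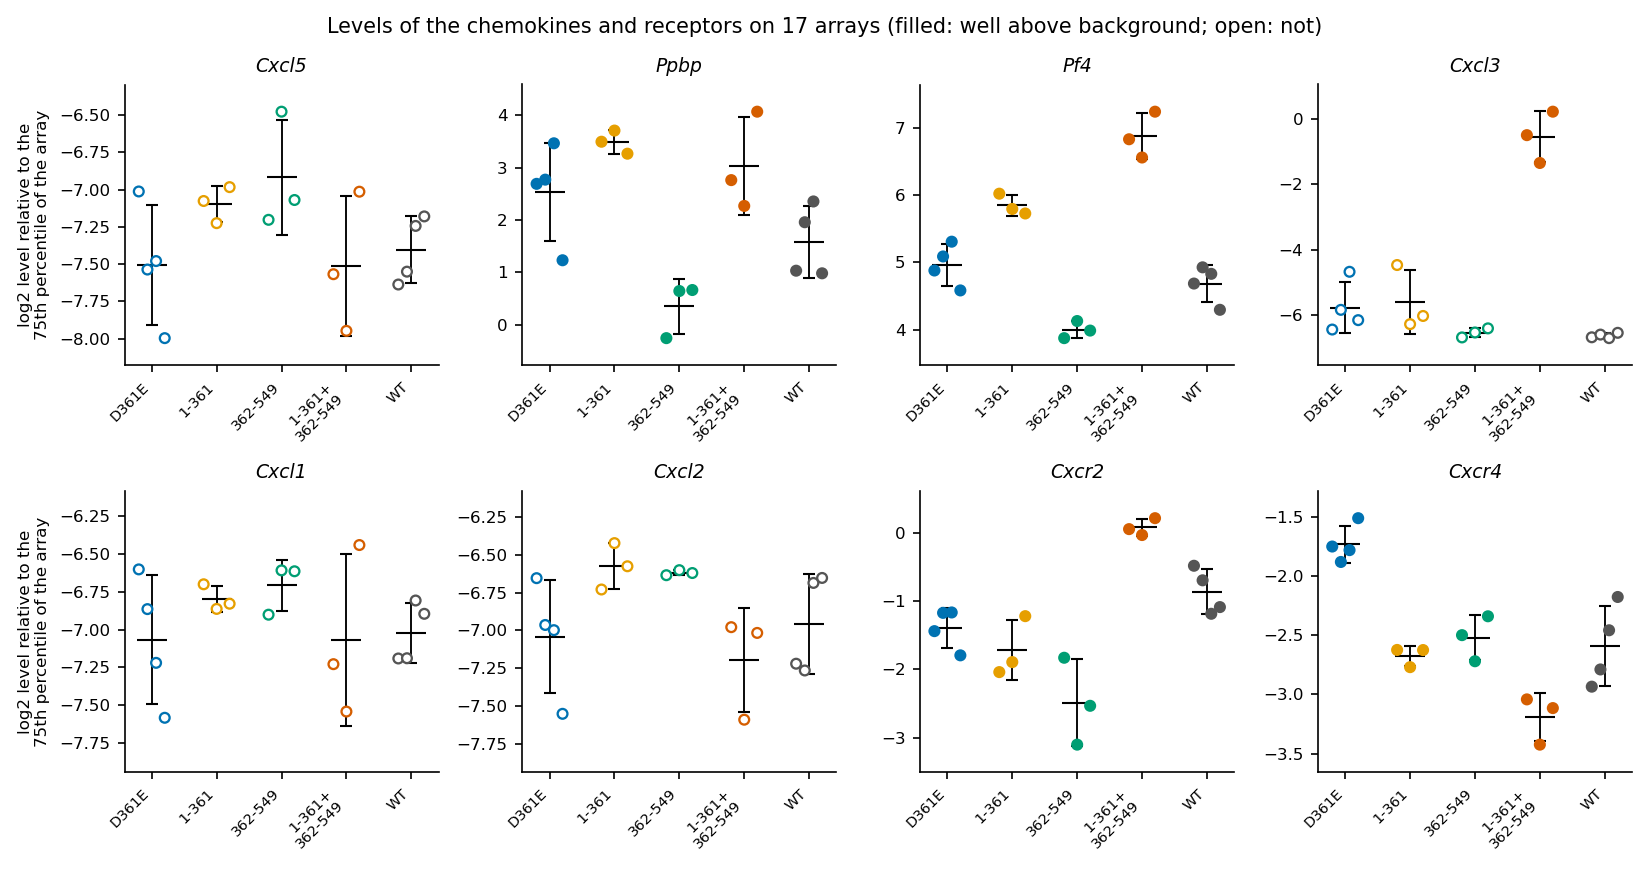
Log2 level relative to the 75th percentile of the array (vertical axis, a separate range in each panel) for the 8 genes in the 5 groups. Each point is 1 array, filled where the probe was well above background and open where it was not, and bars show the group mean ± SD (n = 4 for D361E and WT, n = 3 for the others). Cxcl3 was filled only with 1-361+362-549, while Cxcl1, Cxcl2 and Cxcl5 were open throughout.

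Whether the ligands of the cluster moved together was asked next. Of the 6, only Ppbp and Pf4 were well above background on all 17 arrays, which left 1 pair to correlate. After removal of the group means, the levels of Ppbp and Pf4 varied together from array to array, with Pearson's r = 0.876 (permutation p = 0.00052) and Spearman's rho = 0.853 (permutation p = 0.0002; 100000 resamples within groups, n = 17, 1 relation computed). The 2 arrays farthest from the median of Ppbp after removal of group means were D361E replicate 4 and 1-361+362-549 replicate 2. Without them r was 0.815 (permutation p = 0.00358), with the group means still taken over all 17 arrays. It was 0.802 (permutation p = 0.00474) with values centred on group and slide. Centred on group and on the run of consecutive title numbers, an alternative chosen after seeing the data, r was 0.721 (permutation p = 0.0238) and rho 0.598 (permutation p = 0.045). For the values centred on slide or run, the shuffle was within groups only and ignored the slide or run. Those p-values are therefore approximate and may be too small. Both genes are read on the same array, so they share the brightness of that array. Without scaling between arrays r was 0.730. The shuffle tests the pair against independence and not against other pairs of genes. With group means removed, Ppbp reached r = 0.858 with Lilrb4a and 0.846 with Lilr4b, which are not among the 6 ligands. Those genes were picked as nearest to Ppbp, and whether the value is particular to the cluster was not tested.

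**Figure D2:**
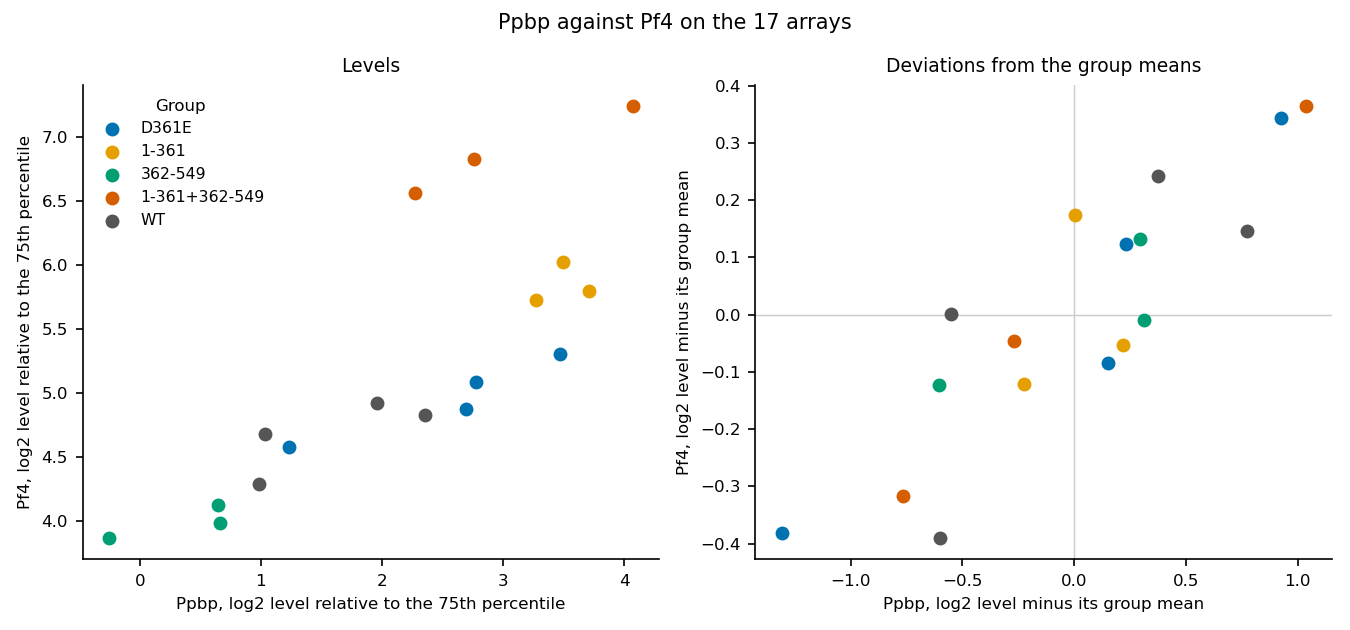
Ppbp (horizontal) against Pf4 (vertical) on the 17 arrays, coloured by group: log2 levels on the left, deviations from the group means on the right. The deviations rise together (r = 0.876), and the 3 arrays with 1-361+362-549 lie above the others in Pf4 but not in Ppbp.

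The 6 ligands did not share their calls. With 1-361+362-549 against 1-361, Cxcl3 was at least 17.7-fold higher by the main background treatment and Pf4 was 2.04-fold higher. Ppbp, 3.305 kb from Pf4, differed by -0.46 and did not pass. With 1-361 against 362-549, Pf4 and Ppbp were higher, while Cxcl3 was not well above background in either group. These are each gene's own values, and the difference between genes was not tested.

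**Figure D3:**
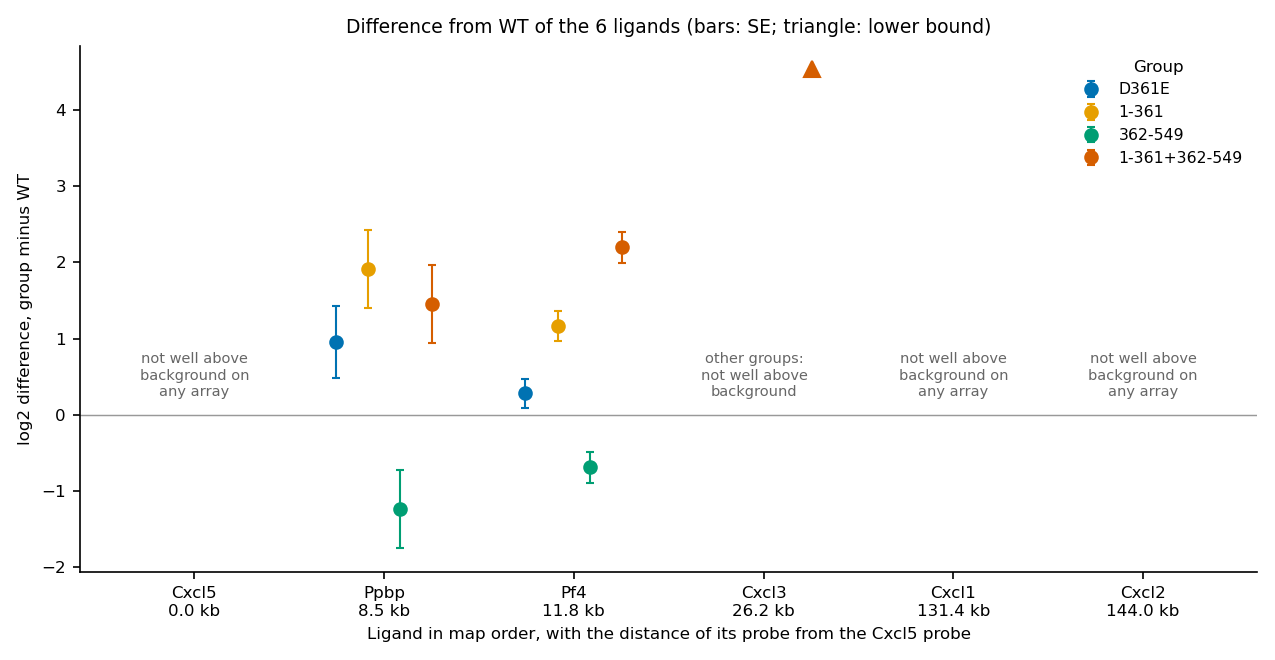
Log2 difference of each group from WT (vertical axis) for the 6 ligands in map order, with the distance of each probe from the Cxcl5 probe. Points are fitted differences with SE, and the triangle is a lower bound for Cxcl3 with 1-361+362-549 (at least 23.1-fold by the main background treatment). Pf4 and Ppbp lie above 0 with D361E, 1-361 and 1-361+362-549 and below 0 with 362-549.

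Other genes of the region were mostly not read. Between 500000 bases before the first and 500000 bases after the last ligand probe, 4 further genes were tested (BC099970, AU017193, Gm9958 and Afp, the fetal serum protein alpha-fetoprotein). None of the 4 was called by limma in any of the 4 comparisons with WT, and 1 had an unadjusted p under 0.05 in 1 of them (with 1-361). Cxcl15, the CXC ligand of the lung that lies between Cxcl3 and Cxcl1, was well above background on 1 array, and the growth factor genes Areg, Ereg, Btc and Epgn on none.

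Platelet and megakaryocyte markers were set beside the platelet factors. Of 13 listed markers, 10 were tested (Gp1bb, Vwf and Tubb1 did not pass the filter), and their summed signal, each array's 75th percentile being 1, ranged from 21.5 to 30.0 with D361E, 33.7 to 40.8 with 1-361, 29.6 to 32.3 with 362-549 and 40.9 to 50.5 with 1-361+362-549, against 31.1 to 36.3 in WT. The group highest in Pf4 was thus the highest in this sum, while D361E, above WT and 362-549 in mean Pf4, was the lowest. With 1-361+362-549 against WT, 3 were called higher and 1 lower, among them Itgb3 (integrin beta 3) by 1.31 ± 0.24 (limma adjusted p = 0.00343; 0.0889 with slide as a block), Gp5 (a subunit of the von Willebrand factor receptor) by 1.53 ± 0.30 (0.00563; 0.154) and Clec1b (the podoplanin receptor) by -1.53 ± 0.31 (0.00821; 0.0969). Gp1ba, another subunit of the von Willebrand factor receptor, was the 1 marker called with D361E, lower at -1.41 ± 0.21 (0.00344; 0.165). The markers named here were picked among those called, after their values were seen. Their p-values are therefore a description and no independent evidence. With 1-361 1 marker was called higher, and with 362-549 limma called 0 (2 at an unadjusted p under 0.05). The median difference of the 10 from WT was -0.34 with D361E, 0.25 with 1-361, -0.06 with 362-549 and 0.41 with 1-361+362-549, beside 0.03, 0.04, 0.05 and 0.04 over all genes tested. Gp6 was well above background on none of the 3 arrays with 1-361+362-549. The part of these markers in the Pf4 and Ppbp values was not tested. In bulk RNA, fewer cells of a type and less RNA per cell cannot be told apart.

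Of the receptors, Cxcr2, the receptor of Cxcl1, Cxcl2, Cxcl3, Cxcl5 and the Ppbp product, was highest with 1-361+362-549. It read -1.44, -1.17, -1.16 and -1.79 with D361E, -2.04, -1.89 and -1.22 with 1-361 and -1.83, -3.10 and -2.53 with 362-549. It read 0.06, -0.03 and 0.22 with 1-361+362-549, against -0.48, -0.69, -1.18 and -1.08 in WT. The 1-361+362-549 arrays lay above every other array, and the means then ran through WT, D361E and 1-361 to 362-549. Neighbours in that order below the first overlapped, while 1-361 lay apart from WT and 362-549 apart from D361E and WT.

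Cxcr2 was higher with 1-361+362-549 than with D361E by 1.47 ± 0.28, or 2.78-fold (limma adjusted p = 0.0033). It was higher than with 1-361 by 1.80 ± 0.30, or 3.48-fold (adjusted p = 0.00161), and than with 362-549 by 2.57 ± 0.30, or 5.94-fold (adjusted p = 4.9e-05). All 3 calls stood with slide as a block (adjusted p 0.0239, 0.039 and 0.0157), and within slides the difference was 1.22 to 1.76 against D361E on 3 slides and 1.86 and 2.26 against 1-361 on 2. No slide held arrays of both 1-361+362-549 and 362-549, so the blocked comparison of these groups runs only through the other groups. With 362-549 against D361E Cxcr2 differed by -1.10 ± 0.28 and did not pass (adjusted p = 0.0899). Against WT, as a description, it differed by -0.53 ± 0.26 for D361E, -0.86 ± 0.28 for 1-361, -1.63 ± 0.28 for 362-549 and 0.94 ± 0.28 for 1-361+362-549. Cxcr2 and the ligand Cxcl3 were thus both at their highest in the same group. The Cxcr2 comparisons share arrays with those that put the gene on the list, so they are no independent evidence of it.

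Cxcr4 was highest with D361E and lowest with 1-361+362-549. It read -1.75, -1.88, -1.78 and -1.51 with D361E, -2.63, -2.77 and -2.63 with 1-361, and -2.50, -2.72 and -2.34 with 362-549. It read -3.04, -3.42 and -3.12 with 1-361+362-549, against -2.94, -2.79, -2.46 and -2.18 in WT. D361E lay above all other arrays and 1-361+362-549 below them, while 1-361, 362-549 and WT overlapped.

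Cxcr4 was lower with 1-361+362-549 than with D361E, at a log2 difference of -1.46 ± 0.18 (limma adjusted p = 5.09e-05; 0.00321 with slide as a block), and within 3 slides the difference was -1.91 to -1.26. Under normexp background correction this difference was -0.77 and did not pass (adjusted p = 0.27), nor did any other Cxcr4 difference given here as called. Against D361E it was also lower with 1-361 (-0.94 ± 0.18, adjusted p = 0.014; 0.277 with slide as a block; lost without any 1 of the 3 arrays with 1-361) and with 362-549 (-0.79 ± 0.18, adjusted p = 0.0376; 0.675 with slide as a block; lost on leaving out any of 12 of the 17 arrays). With 1-361+362-549 against 362-549 the difference was -0.67 ± 0.19 (adjusted p = 0.0274; 0.372 with slide as a block; 0.116 with quantile normalization), lost without 1-361+362-549 replicate 1 or 2 or 362-549 replicate 1 or 3. Without scaling that difference was only -0.07 (limma adjusted p = 0.859). The calls of 1-361 and 362-549 against D361E were then also lost (0.143 and 0.0885), while that of 1-361+362-549 against D361E stood (-1.05, 0.0111). These comparisons share arrays, above all those with D361E, with the ones that put Cxcr4 on the list, so they are no independent evidence of it. Against WT, as a description, Cxcr4 differed by 0.86 ± 0.16 for D361E, -0.08 ± 0.18 for 1-361, 0.07 ± 0.18 for 362-549 (-0.05 with quantile normalization, -0.12 with normexp and -0.34 without scaling) and -0.60 ± 0.18 for 1-361+362-549.

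**Figure D4:**
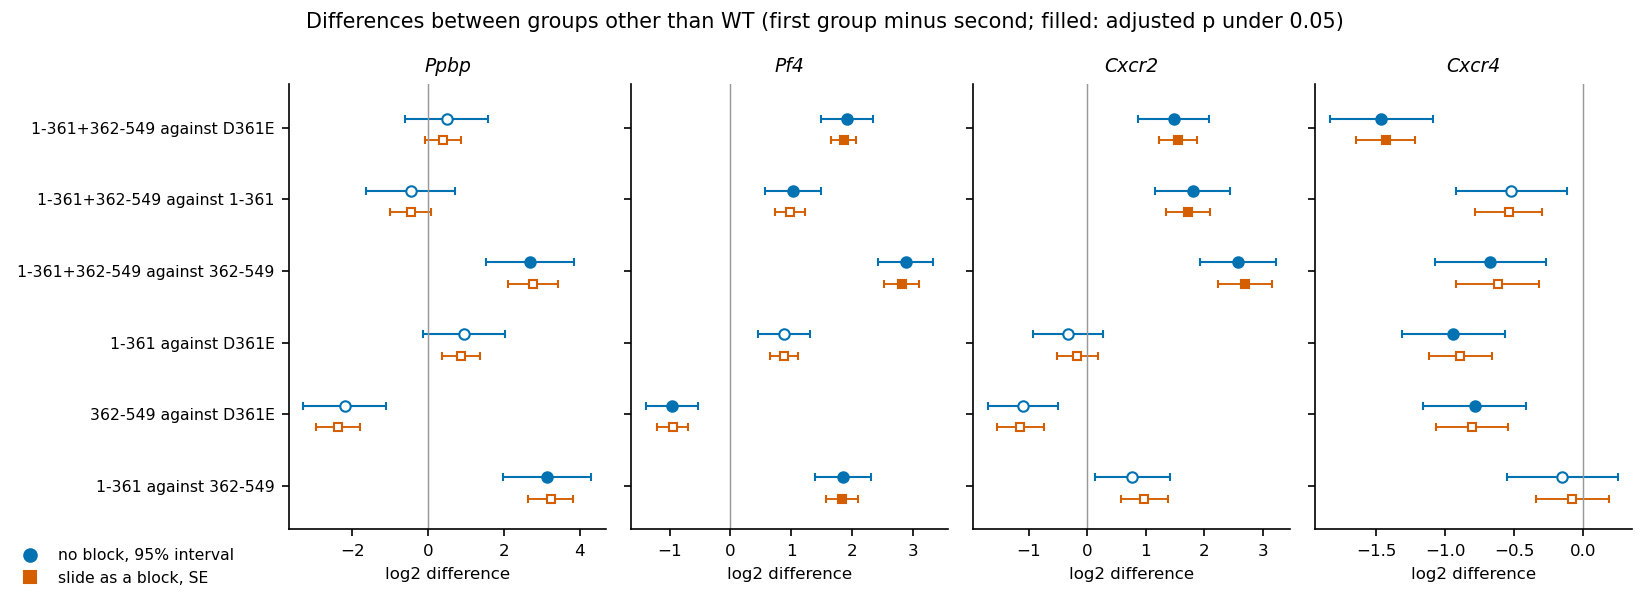
Log2 difference (horizontal axis, first-named group minus second) of Ppbp, Pf4, Cxcr2 and Cxcr4 in the 6 comparisons without WT. Circles are values without a block with their 95% intervals, squares those with slide as a block with SE, filled where the adjusted p was under 0.05. Cxcr2 was higher with 1-361+362-549 in all 3 of its comparisons by both fits, and Cxcr4 was lower than with D361E.

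Set against the whole array, the calls over the 5 tested genes read as follows at a limma adjusted p under 0.05. With D361E against WT 1 gene was called (Cxcr4), where 0.485% of all genes were called. With 1-361 against WT it was 1 (Pf4), beside 0.715%, and with 362-549 against WT 1 (Cxcr2), beside 0.715%. With 1-361+362-549 against WT it was 2 (Cxcl3 and Pf4), beside 5.13%. Those comparisons chose the genes, so nothing is read from these counts. Among the other comparisons, 4 were called with 1-361+362-549 against D361E (3 higher and Cxcr4 lower), beside 9.69%, 3 against 1-361, all higher, beside 11.2%, and 5 against 362-549 (4 higher and Cxcr4 lower), beside 14.6%. With 1-361 against 362-549 it was 2 (Pf4 and Ppbp, both higher), beside 0.629%, with 1-361 against D361E 1 (Cxcr4, lower), beside 1.02%, and with 362-549 against D361E 2 (Pf4 and Cxcr4, both lower), beside 1.28%. Cxcl3 could only enter by differing, and the comparisons share arrays, so the counts describe the list and do not add up as evidence. With slide as a block 4, 2, 3, 1, 0 and 0 genes were called in the same 6 comparisons in that order. Without scaling between arrays the median gene itself shifted, to 0.41, 0.39 and 0.58 with 1-361+362-549 against D361E, 1-361 and 362-549, and 86.2%, 86.3% and 94.2% of all genes called there were higher. With scaling the medians were 0.00, -0.04 and -0.03 and the shares 44.5%, 41.8% and 38.8%.

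Other CXC genes gave little. Of 15 further ligands and receptors listed, 5 were tested and 1 was called in a comparison with WT. That was Ackr1, an atypical receptor that binds chemokines without signalling, which was not well above background on any of the 3 arrays with 1-361+362-549 and was well above it on 3 of 4 in WT. WT was at least 1.73-fold higher by the kind of bound used for Cxcl3. The call rests on the measured difference of -2.64 ± 0.41, 1-361+362-549 minus WT (limma adjusted p = 0.000781; 0.00342 with slide as a block). That difference includes signals at background, so its p does not test the bound. The call was lost under normexp background correction (0.834). Cxcl9, Cxcl13, Cxcl17, Cxcr1 and Cxcr3 were above background on no array. The median difference of the 5 from WT was 0.02 with D361E, 0.23 with 1-361, -0.03 with 362-549 and -0.23 with 1-361+362-549.

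Of 22 listed genes that carry chemokine receptor signals, 21 were tested and 2 were called against WT. Pik3r5, the regulatory subunit of the PI3-kinase that G proteins activate, read -2.01 ± 0.33 with 362-549 (SD, n = 3) and -0.67 ± 0.16 in WT (n = 4), a log2 difference of -1.34 ± 0.18 (limma adjusted p = 0.000957; 0.0177 with slide as a block). Grk5, a kinase that desensitises such receptors, read -0.22 ± 0.06 with 1-361+362-549 (n = 3) and -0.93 ± 0.06 in WT (n = 4), 0.71 ± 0.12 higher (adjusted p = 0.00246; 0.13 with slide as a block). The median difference of the 21 from WT lay between -0.11 and 0.06 over the 4 groups.

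Of 11 NF-kB subunits and inhibitors, 9 were tested, and the count called against WT was 0 with D361E (2 at an unadjusted p under 0.05), 2 lower with 1-361, 2 lower with 362-549, and 2 higher and 2 lower with 1-361+362-549. The lower ones were Tnfaip3 (A20, which limits NF-kB signalling) and Nfkbia (the inhibitor that holds NF-kB in the cytoplasm) throughout. Tnfaip3 differed by -1.78 ± 0.24 with 1-361 (limma adjusted p = 0.000812; 0.0514 with slide as a block), -1.92 ± 0.24 with 362-549 (0.000508; 0.0081) and -1.34 ± 0.24 with 1-361+362-549 (0.00271; 0.0936). Nfkbia differed by -1.01 ± 0.22, -1.48 ± 0.22 and -0.96 ± 0.22 in the same 3 groups (adjusted p 0.0442, 0.00193 and 0.0156; 0.665, 0.0264 and 0.382 with slide as a block), and the first of these was lost on leaving out any of 13 of the 17 arrays. The higher ones with 1-361+362-549 were Relb, by 0.95 ± 0.21 (0.0141; 0.141), and Nfkb2, by 0.80 ± 0.19 (0.0211; 0.21), the subunits of the alternative NF-kB pathway. On leaving out single arrays, Relb lost its call without 1-361+362-549 replicate 1 or 2. Nfkb2 lost it without either of these or WT replicate 2, and Nfkbia in that group without 1-361+362-549 replicate 2. Cxcl3 was thus read in the group in which Relb and Nfkb2 were called higher and Tnfaip3 and Nfkbia lower. Tnfaip3 and Nfkbia were also called lower with 1-361 and with 362-549, where Cxcl3 was at background. Any link of these genes to Cxcl3 was not tested. The median difference of the 9 from WT was -0.24, -0.21, -0.13 and 0.08 with D361E, 1-361, 362-549 and 1-361+362-549.

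The identity of the cells was checked against marker lists. All 9 blood cell markers were tested. With 1-361+362-549, 1 was called higher than in WT (limma adjusted p = 0.0116; 5 at an unadjusted p under 0.05; median difference -0.35), and limma called 0 in the other groups (1 at an unadjusted p under 0.05 with D361E). Their summed signal was 114 to 123 with 1-361+362-549 and 119 to 149 in the other groups with p65 forms, against 128 to 145 in WT. Of 13 markers of neutrophils, the blood cells best known to carry Cxcr2, 4 were tested, and limma called 0 of them against WT in any group (0 at an unadjusted p under 0.05). Their summed signal was 51.3 to 67.8 with 1-361+362-549, against 54.4 to 81.1 in WT, and Ly6g and Mmp8 were above background on no array. Of 9 macrophage markers 6 were tested, with 1 called lower with 1-361 and 1 lower with 1-361+362-549. Of 5 mast cell markers 4 were tested, with 3 called lower with 1-361+362-549 (median difference -3.59), 1 lower with D361E, 1 higher and 2 lower with 1-361 and none with 362-549. Of 5 T cell markers 4 were tested, with 2 called higher with 1-361, 1 higher with 362-549 and 2 lower with 1-361+362-549, and of 4 B cell markers 1 was tested and not called (unadjusted p under 0.05 with D361E and with 1-361+362-549). The part of these markers in the chemokine and receptor values was not tested.

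The genes whose level followed each member most closely over the 17 arrays were sought among 11361 genes with an ordinary symbol. For Pf4 they included Ets2, a transcription factor (r = 0.931), and Adamts14, a secreted protease (0.922). For Ppbp they were Lilr4b (0.852), Peak1 (0.848) and Lilrb4a (0.843), of which the first and the last are closely related immune receptors whose probes may share signal. For Cxcr2 they were Exoc3l4 (0.902), Cd55, an inhibitor of complement (0.876), and Ephx2, an epoxide hydrolase (0.876). For Cxcr4 they were Ifitm6 (0.922), Cd52, a surface glycoprotein of lymphocytes (0.920), and Ccl6, a CC chemokine (0.916). Group differences enter these values, and after removal of group means r with Pf4 was 0.25 for Ets2 and 0.752 for Adamts14, and r with Ppbp was 0.846 for Lilr4b, 0.717 for Peak1 and 0.858 for Lilrb4a. With Cxcr2 it was 0.522 for Exoc3l4, 0.563 for Cd55 and 0.0925 for Ephx2, and with Cxcr4 0.385 for Ifitm6, 0.709 for Cd52 and 0.522 for Ccl6. They are descriptions of 17 arrays of 5 groups, and neither platelet factor was among the 3 nearest genes of the other.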

How the data were processed

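RNA of 17 samples was read on one-colour Agilent arrays. The deposited files hold spot intensity values, background-subtracted by the authors' Agilent Feature Extraction 10.7.3.1, per the file headers and the submitters' processing notes. The deposited value matrix of the series is identical to them (largest relative difference 0). Signals at the 75th percentile ran from 636 to 1214 per array, and 19238 to 21087 probes were well above background. Groups came from the source name of each sample.

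Log2 processed signals minus the 75th percentile of each array were used. Control and outlier spots were dropped, and spots of 1 probe averaged. Kept probes had to be well above background throughout at least 1 group (19769 of 39297), and the brightest stood for a gene (15254 genes, named through RefSeq GRCm38.p6 where matched). A model in limma (3.58.1, R 4.3.3, data.table version 1.17.8) over 5 groups gave 10 contrasts, adjusted by Benjamini-Hochberg over all genes and called under 0.05. The fit was tested on simulated data. Differences are estimate ± SE and levels mean ± SD.

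The members and all lists were chosen with earlier results of these data known. Genes named besides the members were the 3 nearest per member and, per pathway list, up to 4 called against WT with the smallest adjusted p. Some platelet markers called against WT are also named, chosen after their values were seen. A few genes that these rules name are not reported here. The lists were other CXC genes, receptor signalling, NF-kB genes, blood cell, platelet, neutrophil, macrophage, mast cell, T cell and B cell markers, and neighbours. Alternatives were quantile normalization, no scaling, normexp (offset 50), other filters, other probe summaries, slide as a fixed or random block, title-number run as a block, and each array left out. All arrays were scanned on 1 day and lay on 6 slides of 2 to 4.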

Additional observations from a re-analysis of the deposited data

How the results depend on the processing

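With normexp background correction, genes called were 12 with D361E against WT, 31 with 1-361, 27 with 362-549 and 199 with 1-361+362-549, and 1232 over the 6 comparisons without WT, against 74, 109, 109, 783 and 5850. With slide as a fixed block they were 24, 39, 65, 242 and 1650. With no scaling they were 432 with 1-361+362-549 against WT and 10476 over the 6. With no filter they were 45 with D361E against WT and 3299 over the 6, and with only probes well above background on all arrays 34 with D361E, 61 with 1-361 and 51 with 362-549. With the title-number run as a replicate block they were 248, 206, 194, 4688 and 19052. Of 31 same-run pairs 24 correlated above 0.1 (median r 0.383, range -0.18 to 0.728), against 19 of 84 pairs of other runs and groups (median r -0.14). Title numbers 2 to 6, 8 to 12 and 14 to 18 each held a single array of every group, and 20 and 21 were WT and D361E. That layout and the correlations hint at shared runs. The labels state no pairing, so the main fit left the runs out. Its p-values therefore do not take shared runs into account.

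Members called with the replicate block were 2 with 1-361, 3 with 362-549 and 5 with 1-361+362-549 against WT, against 1, 1 and 2, and 21 against 17 over the 6 comparisons without WT. Calls gained there were Ppbp (-2.51, adjusted p = 0.000819) and Cxcr2 (-1.20, 0.0221) with 362-549 against D361E, Pf4 with 1-361 against D361E (0.76, 0.0161) and Cxcr4 with 1-361+362-549 against 1-361 (-0.52, 0.0117). With D361E against WT the 1 call became 0 with quantile normalization, no scaling, normexp, no filter or slide block. With 1-361 it became 0 with no scaling, normexp or slide block. With 362-549 it became 2 with no scaling and 0 with slide block. With 1-361+362-549 it became 1 with probes read on all arrays, which drops Cxcl3. Over the 6 comparisons without WT, 17 became 10 with normexp and 10 with slide block.

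Leaving out each array gave 39 to 92 genes (lowest without WT replicate 1) with D361E against WT, 69 to 126 (lowest without 1-361 replicate 1) with 1-361, 78 to 122 with 362-549, 446 (without 1-361+362-549 replicate 2) to 1253 (without its replicate 3) with 1-361+362-549, and 2745 to 10992 (without the same 2 arrays) over the 6. Members called ranged 0 to 1, 0 to 1, 0 to 1, 2 to 3 and 14 to 19. Pf4 with 1-361 against WT lost its call without 1-361 replicate 1, and Cxcr2 with 362-549 without 362-549 replicate 2. Comparisons with WT chose the genes, and Cxcl3 passed the filter only through its bright group. The member calls and counts against WT in this section therefore describe the processing and are no evidence about the genes.

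Directions reversed for uncalled differences. Ppbp with 1-361+362-549 against D361E ran from -0.024 (without 1-361+362-549 replicate 3) to 0.88 over the arrays left out. Cxcr4 with 1-361 against 362-549 was 0.027 with no scaling. Cxcl3 with 1-361 against D361E, both at background, ran from -0.38 (without 1-361 replicate 1) to 0.56 and was also below 0 without D361E replicate 1. Of the list genes named, Grk5, Relb, Nfkb2 and, except with 362-549, Nfkbia also lost their calls under normexp (adjusted p 0.0531 to 0.463). The cause was not tested. The random slide block had a correlation of -0.05. Signal over background limits Cxcl1, Cxcl2, Cxcl5 and, outside 1-361+362-549, Cxcl3.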
